A study of Mus musculus with 8 samples.

Results

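The 4 EtOH-treated PyMt mammary tumors, which received only the solvent, were 4 of the 8 tumors sequenced in the series, and their transcriptome is described here with no comparison of treatments. The members were the 4 tumors labelled with ethanol treatment, numbered 1 to 4 as in their titles. Each tumor grew from the PyMt cell line, whose source was a mammary carcinoma of a C57BL/6 mouse carrying the MMTV-PyMt transgene, and which was injected orthotopically into the mammary fat pad of female WT mice aged 6 to 8 weeks. EtOH was applied topically every 2 days from 2 days after implantation, and tumors were taken 24 hours after the last application. As a model, all 4 tumors came from 1 cell line, and the host had an intact immune system. The whole tumor was sequenced, so host stromal, vascular, blood and immune cells contributed RNA beside the tumor cells, and line and host shared the C57BL/6 background. In such bulk samples, fewer cells of a type and less RNA per cell cannot be told apart.

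The MMTV promoter drives the polyoma middle T antigen in mammary epithelium, where the antigen recruits Src family kinases, Shc adaptors and phosphoinositide 3-kinase and so starts luminal carcinomas. Epithelial cells are held together by E-cadherin junctions, claudins and keratins, and this program is maintained by factors such as Grhl2, Ovol1, Ovol2 and the splicing regulators Esrp1 and Esrp2. In an epithelial-mesenchymal transition, factors of the Zeb, Snai and Twist families repress it while vimentin, fibronectin and N-cadherin are made. Mammary tumors also hold macrophages, fibroblasts and vessels, and macrophages are often the most numerous immune cells in the PyMt model.

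The table held 55414 gene identifiers, 52133 of which had a symbol, and 21927 of these were protein-coding. Library totals ran from 20908409 to 25084715 counts, so that 3 counts, taken as the limit that a count of 0 allows, stood for 0.117 to 0.143 counts per 1000000 counts of the library (CPM). CPM were computed on library sizes scaled by the trimmed mean of M-values, and levels were compared between genes as CPM per kb of exon. A rank or a sum of plain CPM tells how many counts went to a gene or list, and long transcripts take more counts at the same level. Of the protein-coding genes, 11321 (51.6%) were at 1 CPM or more in all 4 tumors, and 6640 (30.3%) had 0 counts in all 4. These shares are the background for the counts of detected and silent list members below. The 9182 genes with a mean of 10 CPM or more over the tumors, called genes past 10 CPM below, served for every count of genes that differed between tumors and of the order of tumors, and 98.6% of them were protein-coding. Single values and sums are also given for genes below that mean. The counts were concentrated: 99 genes held 25% of all counts, 602 held 50% and 5283 held 90%.

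The tumors stood apart as pairs. Over the 9182 genes, Pearson's r of log2(CPM + 0.5) was 0.979 between tumors 1 and 2 and 0.983 between tumors 3 and 4, against 0.923 to 0.939 for the other pairings, each across genes, which are not independent replicates. The number of genes at least 2-fold apart was 56 between tumors 1 and 2 and 28 between tumors 3 and 4, and it lay between 498 and 672 for the other pairings. The first principal component of the deviations held 76.2% of their variance and separated tumors 1 and 2 from tumors 3 and 4. The labels give no batch, cage, date or tumor size that would tell the pairs apart, and the tumors are therefore described one by one below. As a background, tumors 1 and 2 were the 2 highest for 33% of these genes and tumors 3 and 4 for 30.6%. Such genes are those whose values do not overlap between the pairs, so these shares also stand behind each statement of no overlap below.

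Transcript length moved with this order. Among the 2292 genes with the longest transcripts (5019 bases or more), tumors 1 and 2 were the 2 highest for 54.6%, against 15% among the 2294 genes with the shortest (2320 bases or fewer). Tumors 3 and 4 were the 2 highest for 14.5% of the longest and 47.9% of the shortest. The median deviation of the longest genes from the 4-tumor mean was 0.14, 0.13, -0.06 and -0.19 on the log2 scale in tumors 1 to 4, and that of the shortest was -0.09, -0.09, 0.03 and 0.15. When the median of each length class was taken off in each tumor, a step added after seeing the data, the first component still held 74.5% of the variance, and the background shares became 30.4% and 30.5%. Counts for a gene list are given both ways below where they differ by more than 1 gene. The part of RNA quality or library preparation in these differences was not tested.

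The identifiers that took the most counts included mitochondrial, translation and matrix genes. The first of them, ENSMUSG00000119584, has no symbol in the annotation used and took 1.58%, 1.95%, 1.48% and 1.39% of the counts in tumors 1 to 4. Next came mt-Co1, a subunit of cytochrome c oxidase, at 10502, 17976, 19111 and 16037 CPM, with the lowest value in tumor 1. Spp1, which encodes the secreted phosphoprotein osteopontin, stood at rank 3 by counts at 10038, 11779, 11221 and 11306 CPM (mean 11086 ± 741, SD, n = 4), an even level over the tumors. Eef1a1, the elongation factor that brings aminoacyl-tRNA to the ribosome, was at 10726 ± 1270 CPM (SD, n = 4), with tumor 2 highest at 12620. Fn1, the matrix glycoprotein fibronectin, was at 10982, 10916, 8109 and 6771 CPM and thus lower in tumors 3 and 4.

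The 20 identifiers with the most counts also included Vim, Apoe, Actb, Col3a1, Mgp, Tpt1, Eef2, Rplp0 and Hsp90ab1, and their levels are drawn in the plot of the highest identifiers. Of these, Mgp, matrix Gla protein and an inhibitor of calcification, differed most between tumors at 5185, 4218, 1186 and 1412 CPM. Actb, the cytoskeletal actin often used as a reference gene, went the other way at 2054, 2302, 4309 and 4574 CPM. Neither gene's values overlapped between tumors 1 and 2 and tumors 3 and 4. Per kb of exon, the protein-coding order began with mt-Co1 at 10295 CPM per kb, Spp1 at 6727, mt-Cytb at 4405 and Eef1a1 at 4303, and Hbb-bs, the adult beta-globin of red cells, was at rank 8 with 2544. The 10 highest identifiers took 9.08% ± 1.23 of the counts and the 50 highest took 18.6% ± 1.20 (SD, n = 4).

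**Figure D1:**
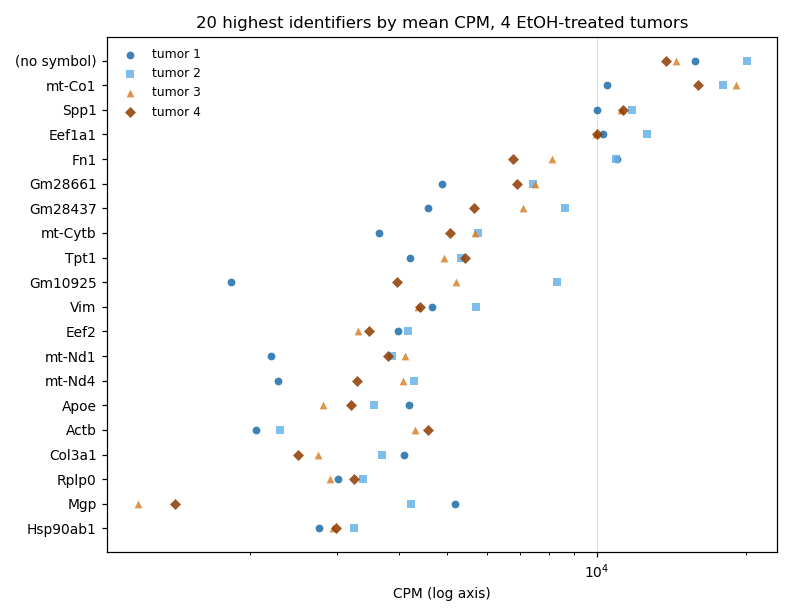
CPM on a log axis of the 20 identifiers of highest mean CPM, 1 row each, with 1 point per EtOH-treated tumor. Spp1 sits between 10038 and 11779 CPM in every tumor, while Mgp runs from 1186 to 5185.

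Counts of mitochondrial genes were split between copies. Gm28661, Gm28437 and Gm10925 are pseudogenes on chromosome 1 that were among the 20 highest identifiers, and 100% of their 31-base words occur in mt-Co2, mt-Co3 and mt-Atp6, in that order, so that each pair is best read as a sum. mt-Atp6 and Gm10925 summed to 5078, 9674, 7758 and 6951 CPM, although mt-Atp6 alone was at 3246, 1346, 2555 and 2992. Together the mitochondrial chromosome and these copies took 3.74%, 6.09%, 6.29% and 5.54% of the counts, with tumor 1 lowest. The median deviation of the 15 mitochondrial genes past 10 CPM was -0.56 in tumor 1 on the log2 scale. On chromosomes 1 to 19 and X, no median deviation exceeded 0.07 in size in any tumor. Ribosomal protein genes took 8.23% ± 0.59 of the counts (SD, n = 4).

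The label gives an epithelial cell type, yet most of the listed epithelial genes were low in these whole tumors. Host cells also gave RNA, so list levels cannot tell the type of the tumor cells. The paper also stained PyMt tumors for cytokeratin and scored positive and negative cells. Of 30 epithelial genes, only 5 (Krt8, Krt18, Jup, Spint1 and Cdh1) were at 1 CPM or more in all 4 tumors, and these same 5 were the only members with a mean of 10 CPM or more. Of 30 mesenchymal genes, all 30 passed 1 CPM in every tumor and 27 had a mean of 10 CPM or more. Among all protein-coding genes, 51.6% passed 1 CPM in every tumor. The median member stood at 0.0879 CPM per kb in the epithelial list and at 24.4 CPM per kb in the mesenchymal list, beside 6.46 over all protein-coding genes detected in every tumor. The mean of log2(CPM per kb + 0.1) over the epithelial list minus that over the mesenchymal list was -6.40, -6.70, -6.03 and -5.88 in tumors 1 to 4 (mean -6.25 ± 0.37, SD, n = 4).

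The epithelial genes past 1 CPM in every tumor were led by simple-epithelium keratins and a junction protein. Krt8 was at 637, 630, 505 and 531 CPM and Krt18, its filament partner, at 584, 643, 447 and 493 CPM. Both were high in every tumor, at ranks 162 and 126 among protein-coding genes by CPM per kb. Jup, or plakoglobin, which links cadherins and desmosomes to the cytoskeleton, was at 279 ± 27.2 CPM (SD, n = 4). Cdh1, which encodes E-cadherin, was at 5.82, 4.85, 15.7 and 14.9 CPM, a level of 2.25 CPM per kb. Spint1, a membrane inhibitor of serine proteases, was at 18.2, 18.9, 38.8 and 44.0 CPM, and like Cdh1 it was higher in tumors 3 and 4 without overlap.

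The remaining junction and identity genes stayed at 6.92 CPM or less in every tumor. Epcam, the classical epithelial adhesion molecule, had 0 counts in tumors 1 and 2 and stood at 4.15 and 2.78 CPM in tumors 3 and 4. Krt19 was likewise at 0 in tumors 1 and 2, with 5.83 and 6.92 CPM in tumors 3 and 4. Grhl2, Ovol1, Ovol2 and Crb3 had 0 counts in all 4 tumors, which allows a level of up to 0.117 to 0.143 CPM in each. Another 5 members had 3 counts or fewer over the 4 tumors: Cldn7, Prss8, Esrp1, Ap1m2 and Marveld3. Cldn3, Cldn4, Elf3 and Esrp2 stayed at 1.45 CPM or less in every tumor.

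Promoters of low and high epithelial genes are shown. They were picked because they carry the short E-box that the Zeb and Snai repressors are known to bind. Each line gives the 250 bases before a RefSeq transcription start on GRCm38.p6, 5′ to 3′ on the gene's own strand, with CACCTG on either strand (CAGGTG when read on the printed one) in capitals. Epcam (chr17:87635729-87635978, plus strand) had 0 counts in tumors 1 and 2, Crb3 (chr17:57061951-57062200, plus strand) had 0 in all 4, and Krt18 (chr15:102027966-102028215, plus strand) was high.
Epcam: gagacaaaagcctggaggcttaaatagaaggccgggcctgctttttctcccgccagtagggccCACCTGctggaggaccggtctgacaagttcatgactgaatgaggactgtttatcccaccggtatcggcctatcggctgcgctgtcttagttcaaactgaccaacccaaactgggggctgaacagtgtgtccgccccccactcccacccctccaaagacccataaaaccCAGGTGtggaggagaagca
Crb3: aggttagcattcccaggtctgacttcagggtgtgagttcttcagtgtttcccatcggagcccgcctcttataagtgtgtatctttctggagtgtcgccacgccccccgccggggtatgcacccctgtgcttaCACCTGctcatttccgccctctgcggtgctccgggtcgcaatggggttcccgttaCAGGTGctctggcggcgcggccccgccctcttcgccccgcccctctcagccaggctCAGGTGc
Krt18: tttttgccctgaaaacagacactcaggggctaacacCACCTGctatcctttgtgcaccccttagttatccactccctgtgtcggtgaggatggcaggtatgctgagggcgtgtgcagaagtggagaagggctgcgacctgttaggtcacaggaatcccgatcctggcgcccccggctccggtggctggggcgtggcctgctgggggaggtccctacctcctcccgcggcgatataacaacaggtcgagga
The hexamer occurred in at least 1 such window of 5252 of the 27025 genes with an entry, or 19.4%. Of the 18 epithelial genes with an entry, 13 (72.2%) held it, namely 9 of the 12 whose mean was under 1 CPM and 4 of the 6 at 1 CPM or more. Jup and Spint1, both past 1 CPM in every tumor, and Cldn3, Ovol2 and Dsp, with means under 1 CPM, did not hold it. Of the 20 mesenchymal genes with an entry, 1 (5%) held it, and no mesenchymal promoter is printed. Each list has 30 genes, and those without an entry included Cdh1, Grhl2, Ovol1, Esrp1 and Esrp2. Genes with several starts had several windows, and Cldn7 and Ocln held the hexamer in only 1 of theirs. A match of 6 letters is a description of the sequence and not a binding site, and these shares were not tested.

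The listed genes of the Zeb, Snai and Twist families were expressed in every tumor. Twist1 was at 244, 222, 156 and 141 CPM and stood highest of them at 117 CPM per kb. The part of these factors in the levels of the epithelial genes was not tested. Snai1 was even over the tumors at 54.0 ± 4.14 CPM (SD, n = 4), or 33.3 CPM per kb. Zeb1 was at 100, 120, 80.3 and 71.1 CPM and Zeb2 at 89.9 ± 5.58 CPM (SD, n = 4). Snai2 was low, at 1.29 to 3.91 CPM. Twist1 and Zeb1 were higher in tumors 1 and 2 without overlap. Twist2 ran the other way at 44.8, 47.3, 57.8 and 62.8 CPM, whereas the highest tumor was 1.15 times the lowest for Zeb2 and 1.19 times for Snai1.

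Among the structural genes of the mesenchymal list, S100a4 (fibroblast-specific protein) led per kb at 2184, followed by Lgals1 (galectin) at 1942 and Vim, the intermediate filament of mesenchymal cells, at 1008 CPM per kb. Vim was at 4645, 5714, 4370 and 4394 CPM. Cdh2, or N-cadherin, was at 20, 28.7, 20.7 and 29.2 CPM. Per kb this was 2.48, 3.56, 2.57 and 3.62, beside 1.27, 1.06, 3.42 and 3.25 for Cdh1, so E-cadherin stood lower in tumors 1, 2 and 4 and higher in tumor 3. Of the smooth muscle and contractile genes, Tagln was at 7.25, 8.38, 28.1 and 37.5 CPM and Acta2 at 18.8, 30.7, 44.4 and 49.4, both higher in tumors 3 and 4. Cald1, or caldesmon, was at 562, 701, 636 and 556 CPM, and its highest tumor was 1.26 times the lowest. The sources of these transcripts were not separated, since fibroblasts and macrophages of the host also express Vim, Fn1 and S100a4.

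**Figure D2:**
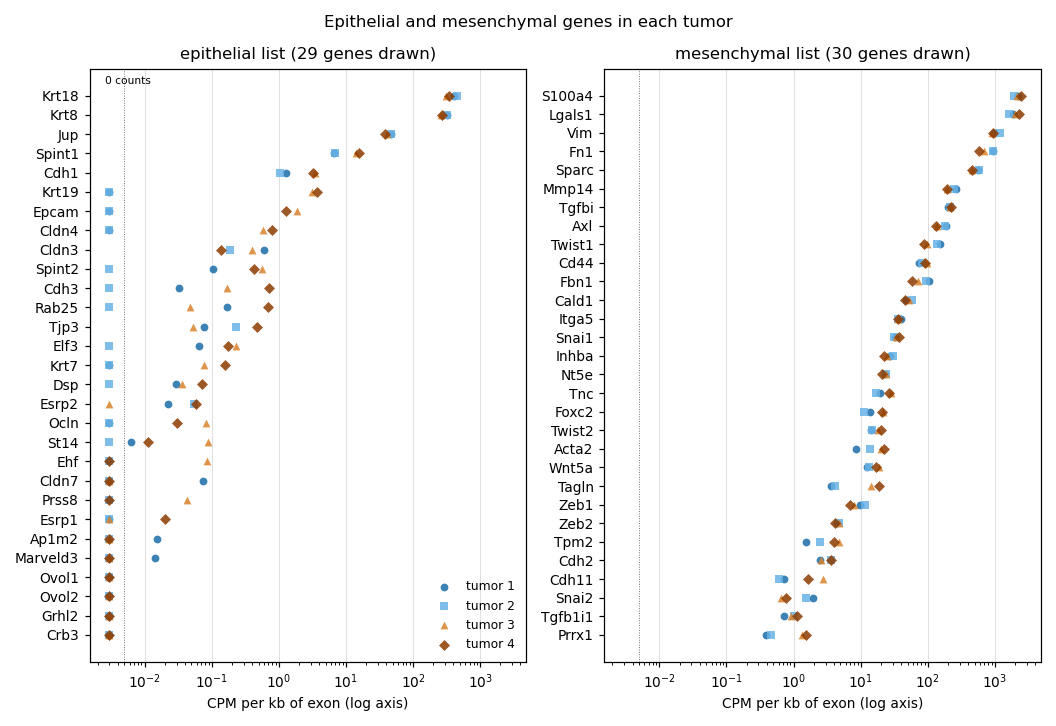
CPM per kb of exon on a log axis for 29 of the 30 epithelial and all 30 mesenchymal genes, with 1 point per tumor and values of 0 drawn at 0.003, left of the dotted line. Krt18, Krt8 and Jup lead the epithelial list, 4 epithelial genes are at 0 in every tumor, and no mesenchymal gene is at 0 in any tumor.

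Of 20 luminal and milk genes, 7 were at 1 CPM or more in every tumor, beside 51.6% of all protein-coding genes. Gata3, the master factor of luminal differentiation, was at 63.2, 55.8, 45.0 and 46.0 CPM, and Trps1, a GATA-type factor of the breast, at 189, 227, 145 and 111. Esr1, the estrogen receptor, was at 30.0, 27.8, 14.5 and 16.7 CPM, whereas Pgr, the progesterone receptor, did not pass 1 CPM in any tumor. Erbb2 was at 22.8 to 34.9 CPM. The milk genes Csn1s1, Csn2 and Wap and the alveolar factor Elf5 had 0 counts in all 4 tumors.

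Basal cytokeratins were low, although some integrins and laminins of the basal list were high. Krt5, Krt14, Krt17 and the basal factor Trp63 stayed at 2.70 CPM or less in each tumor, and Krt6a and Krt16 were at 0. Itga6, a laminin-receptor subunit also found on endothelium and tumor cells, was at 742, 716, 877 and 746 CPM, and its partner Itgb4 at 407, 369, 326 and 270. Of 14 keratinocyte differentiation genes, 9 were at 0 in all 4 tumors, among them Krt1, Flg and Ivl, and only Lor and Krt10 passed 1 CPM in every tumor. Over the whole keratin family, 33 of 53 protein-coding genes had 0 counts and 5 passed 1 CPM in every tumor. Among all protein-coding genes the shares were 30.3% with 0 counts and 51.6% past 1 CPM in every tumor.

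Genes of the fibroblast list took many counts but did not move together. All 16 passed 1 CPM in every tumor and summed to 9047, 8520, 7285 and 6728 CPM, 41.2% of which were counts of Col3a1. Fap was the lowest member at 5.58, 6.68, 5.95 and 5.73 CPM. The cells that made these transcripts were not separated. Col3a1, a fibrillar collagen, was at 4084, 3698, 2741 and 2497 CPM and Postn, the matrix protein periostin, at 1509, 1731, 706 and 700. Col1a1, the chain that defines interstitial collagen, was at 297, 262, 1117 and 1008 CPM and Col1a2 at 234, 200, 787 and 755, each higher in tumors 3 and 4 without overlap. Pdgfrb (680, 550, 305 and 293 CPM) and Pdgfra (183, 196, 83.4 and 61.8 CPM), the growth factor receptors of fibroblasts, followed Col3a1, while Pdpn, Dpt, Lum and Mfap5 followed Col1a1. Of the 15 members with a mean of 10 CPM or more, 7 were highest in tumors 1 and 2 and 7 in tumors 3 and 4. Of these 15, 11 differed at least 2-fold between the highest and the lowest tumor, beside 11.8% of all 9182 genes, and 5 differed at least 4-fold, beside 1.14%.

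Vessel genes were higher in tumors 1 and 2. The 16 endothelial genes summed to 603, 612, 307 and 337 CPM. Cdh5, the cadherin of endothelial junctions, was at 106, 117, 51.8 and 41.4 CPM and Pecam1 at 71.1, 90.3, 36.6 and 37.4. Clec14a, a lectin of tumor vessels, differed most at 30.2, 24.4, 3.09 and 3.89 CPM, while Kdr, a receptor for VEGF, stayed at 12.3 to 15.2. Tumors 1 and 2 were the 2 highest for 12 of the 13 members past 10 CPM and for none were tumors 3 and 4, against the backgrounds of 33% and 30.6%. The mural list, genes of pericytes and smooth muscle, summed to 236, 238, 125 and 129 CPM, with 5 of 6 members highest in tumors 1 and 2. Rgs5, a pericyte regulator of G proteins, was at 84.4, 107, 41.7 and 40.3 CPM. Lymphatic genes went the other way, and almost only through Lyve1, which macrophages can also express, at 4.87, 4.33, 37.9 and 29.6 CPM, while Prox1, the lymphatic master factor, did not pass 0.744 CPM.

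Macrophage genes took the most counts of the immune lists. All 20 had a mean past 10 CPM and summed to 18293, 19692, 19460 and 20034 CPM, 57.2% of which were counts of Spp1, a gene that tumor cells can also make. Without Spp1 the sum was 8254, 7912, 8239 and 8728 CPM. Apoe was the next highest member at 4176, 3558, 2802 and 3189 CPM, higher in tumors 1 and 2. Lyz2 ran the other way at 1317, 1548, 1906 and 1877 CPM, so the even sum joins genes of opposite order. C1qa, a subunit of the complement starter C1q, was at 555, 432, 615 and 745 CPM. Csf1r, the receptor for the growth factor of macrophages, was at 356, 359, 318 and 298 CPM and Adgre1, the F4/80 antigen, at 59.9, 73.1, 77.5 and 74.0. The highest tumor was 1.72 times the lowest for C1qa, 1.20 times for Csf1r and 1.29 times for Adgre1. Arg1, arginase of alternatively activated macrophages, was at 265, 316, 564 and 561 CPM and Mrc1, the mannose receptor, at 203, 277, 362 and 322. Mertk, a receptor for apoptotic cells, ran against these at 58.1, 47.8, 22.0 and 20.5 CPM. Tumors 3 and 4 were the 2 highest for 12 of the 20 members, and for 8 of the 20 once the length trend was taken off.

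Monocyte and neutrophil genes differed between the tumors in opposite directions. Ccr2, the chemokine receptor of inflammatory monocytes, was at 22.8, 27.0, 78.4 and 72.7 CPM, and Chil3 at 2.24, 4.66, 23.1 and 24.4. All 4 monocyte genes past 10 CPM were highest in tumors 3 and 4. S100a8 and S100a9, the calprotectin subunits of neutrophils, were at 28.2, 26.5, 7.75 and 7.99 CPM and at 37.9, 38.9, 13.1 and 12.0 CPM, and all 3 neutrophil genes past 10 CPM were highest in tumors 1 and 2. Ly6g, the defining surface marker, did not pass 0.334 CPM. Of the 11 neutrophil genes, 5 passed 1 CPM in every tumor, a share near the 51.6% of all protein-coding genes. Ptprc, the CD45 antigen of all leukocytes, was at 44.5, 47.8, 72.9 and 60.6 CPM, and 4 of 5 pan-leukocyte genes were highest in tumors 3 and 4.

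Lymphocyte transcripts were scarce. None of the 14 T cell genes passed 1 CPM in all 4 tumors, and their sum was 5.53, 4.24, 2.58 and 2.44 CPM. Cd3e, a chain of the T cell receptor complex, had 10 counts over the 4 tumors, all in tumor 2, and Cd8a had 9. Foxp3, the factor of regulatory T cells, had 25 counts, and Cd5 had 0. The 9 genes of NK and cytotoxic cells summed to 2.11 to 2.86 CPM, with Ncr1 at 0. The 8 B and plasma cell genes summed to 5.15, 5.41, 11.9 and 9.83 CPM, most of it immunoglobulin. The 9 dendritic cell genes summed to 14.2, 18.7, 10.8 and 16.8 CPM and included Itgax, which macrophages share.

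**Figure D3:**
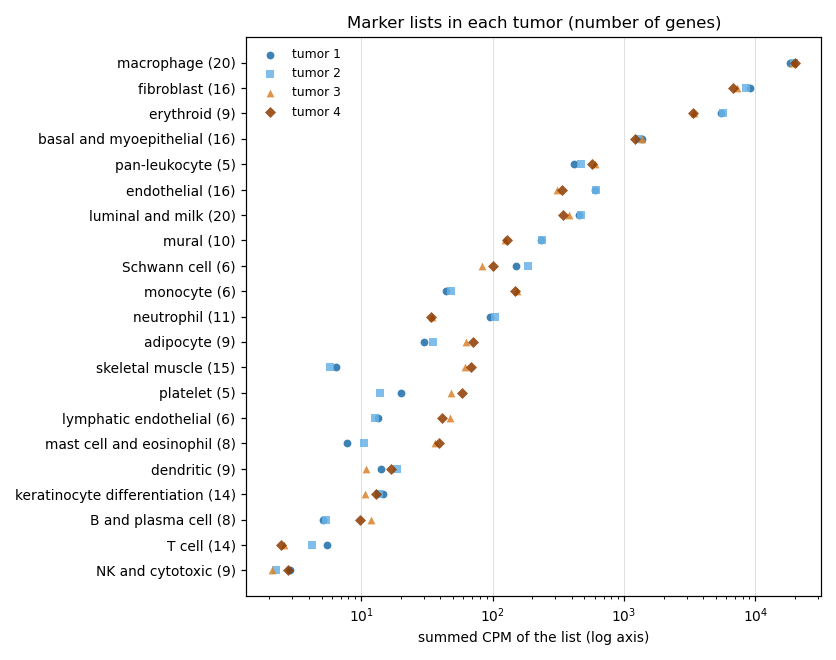
Summed CPM on a log axis of each marker list other than the epithelial and mesenchymal ones, 1 point per tumor, with the number of genes in brackets. The macrophage list runs from 18293 to 20034 CPM, the T cell list from 2.44 to 5.53 CPM, and the skeletal muscle list from 5.74 to 68.4 CPM.

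Muscle, fat and mast cell genes were higher in tumors 3 and 4. The 15 skeletal muscle genes, none with a mean of 10 CPM or more, summed to 6.44, 5.74, 62.2 and 68.4 CPM, with Ckm, the creatine kinase of muscle, at 0 in tumors 1 and 2 and at 8.73 and 10.4 CPM in tumors 3 and 4. Among adipocyte genes, Cfd (adipsin) was at 0.191, 0, 17.0 and 21.8 CPM and Adipoq at 0, 0, 1.45 and 0.897, whereas Fabp4, which endothelium and macrophages also make, stayed at 27.5 to 32.4. Among mast cell genes, Mcpt4, a connective tissue mast cell protease, was at 2.05, 4.19, 13.0 and 15.7 CPM. Epcam, Krt19 and Krt5 were also higher in tumors 3 and 4. The part of adjoining fat and muscle in the values of those tumors was not tested.

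Red cell genes were high in all tumors. Hbb-bs was at 2510, 2441, 1426 and 1438 CPM and Hba-a1 at 1255, 1248, 822 and 813, higher in tumors 1 and 2 as the vessel genes were. Counts of Hba-a1 and Hba-a2, near-identical alpha-globin copies, may be split between them. Klf1, the erythroid factor of nucleated precursors, did not pass 0.382 CPM. In the platelet list, Pf4, which macrophages can also express, gave 83.0% of the sum, and Gp9 stayed at 0.334 CPM or less. S100b made up 93.9% of the Schwann cell list, at 145, 176, 76.0 and 91.9 CPM, while Sox10 did not pass 0.191 CPM. Of 15 genes of other tissues (liver, brain, heart and others), only Alb passed 1 CPM in every tumor, at 2.64 to 6.41. Xist was at 937, 881, 620 and 478 CPM and 4 Y-linked genes had 0 counts in these tumors of female recipients.

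Proliferation genes were expressed in every tumor and stood highest in tumors 3 and 4. The 20 genes summed to 1526, 1645, 2376 and 2391 CPM, and tumors 3 and 4 were the 2 highest for all 20. Pcna, the sliding clamp of DNA polymerase, was at 150, 144, 262 and 281 CPM, and Mcm3, of the replication helicase, at 54.6, 54.2, 113 and 126. Mki67, which marks cycling cells, was at 154, 198, 233 and 213 CPM, a narrower range. Of the 20 genes, 2 differed at least 2-fold between tumors, beside 11.8% of all 9182 genes.

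All 16 glycolysis and hypoxia genes had a mean past 10 CPM, and 2 of them, Car9 and Adm, differed at least 2-fold, beside 11.8% of all 9182 genes. Pkm, the pyruvate kinase of the glycolytic pathway, was at 1986, 1898, 2213 and 2328 CPM and Ldha at 944, 1001, 1226 and 1307. Car9, a carbonic anhydrase induced by hypoxia, was at 12.3, 9.93, 34.8 and 34.4 CPM, whereas Adm, another hypoxia target, was at 22.3, 16.4, 6.97 and 12.1. Of the 16 members, 10 were highest in tumors 3 and 4, and 8 once the length trend was taken off. The heat shock list was even in sum, at 7061 to 8107 CPM.

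Antigen presentation and interferon genes were expressed in every tumor. The MHC class I list summed to 2027, 2122, 1891 and 2088 CPM, with B2m, its light chain, at 707, 961, 668 and 702. The class II list summed to 871, 935, 615 and 670 CPM, with Cd74, the invariant chain, at 441, 512, 290 and 346. All 12 interferon-stimulated genes passed 1 CPM in every tumor, but their sum was only 169 to 260 CPM and 6 of the 7 past 10 CPM were highest in tumors 3 and 4. The highest sum was 1.12 times the lowest for class I, 1.52 times for class II and 1.54 times for the interferon-stimulated list. None of their 8, 6 and 7 members past 10 CPM differed 2-fold between tumors, beside 11.8% of all 9182 genes.

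Immediate early genes, transcribed within minutes of a stimulus, were high. Egr1 was at 745, 713, 673 and 625 CPM and Fos at 339, 311, 207 and 190. Nr4a1, an orphan nuclear receptor of this class, was the single member of 11 to differ 2-fold, beside the same 11.8%, at 264, 247, 69.6 and 67.7 CPM. All 10 genes of the proteins that bind middle T antigen or carry its signal had a mean past 10 CPM. Src was at 86.9, 73.5, 83.0 and 83.1 CPM, Ppp2r1a, the scaffold of the phosphatase that middle T binds, at 255, 247, 255 and 285, and Pik3ca at 78.6, 83.4, 68.2 and 65.2. Of 11 tumor suppressors, 9 passed 1 CPM in every tumor, among them Trp53 at 106, 109, 154 and 139 CPM. The other 2 were Cdkn2a, with 18 counts in all and every one in tumor 3, and Cdkn2b, at 1.04 CPM or less.

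The plot of tumor order by list sets these counts side by side. It draws every list with at least 8 members past 10 CPM, and the lists of clock, sterol and bone genes in it were chosen after their values were seen. The other lists were chosen with earlier results of these data known, so none of the shares is independent of the data. Endothelial genes had the largest share with tumors 1 and 2 highest, and proliferation and sterol synthesis genes the largest with tumors 3 and 4 highest.

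**Figure D4:**
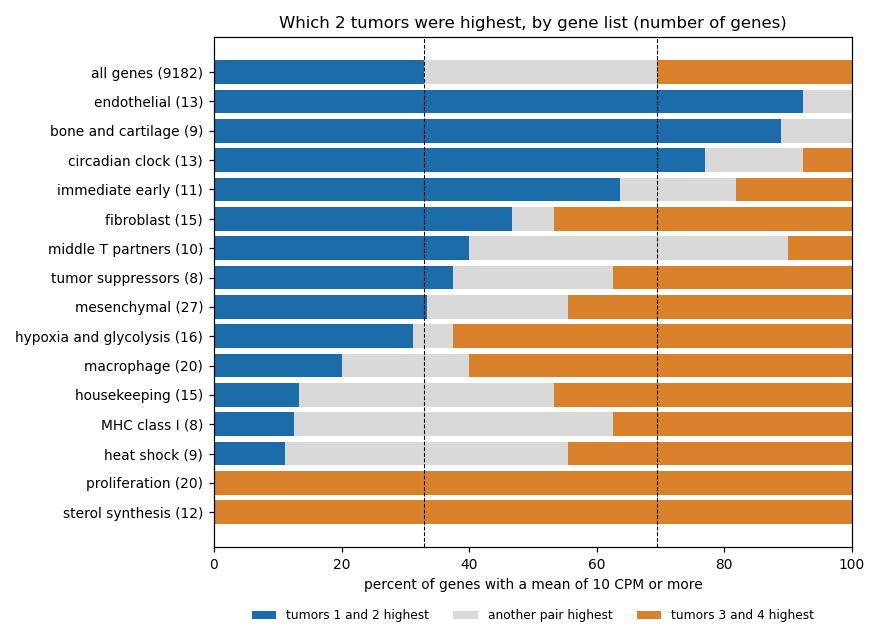
Percent of each list's genes with a mean of 10 CPM or more for which tumors 1 and 2 (blue), tumors 3 and 4 (orange) or another pair (grey) were the 2 highest, with the number of genes in brackets and the shares over all 9182 genes as dashed lines. Tumors 1 and 2 were highest for 12 of 13 endothelial genes, and tumors 3 and 4 for all 20 proliferation genes.

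Some families of restricted expression were silent nearly throughout. Of 1135 olfactory receptor genes, 1108 (97.6%) had 0 counts in all 4 tumors, beside 30.3% of all protein-coding genes, as had 321 of 330 vomeronasal receptors, all 35 bitter taste receptors and 38 of 42 beta-defensins. None of these 4 families had a member at 1 CPM or more in every tumor. Among claudins, which seal epithelial junctions, 15 of 32 were silent and 3 passed 1 CPM, namely Cldn5 (of endothelium), Cldn12 and Cldn34c1. Of 39 Hox genes, 11 (28.2%) were silent, near the 30.3% of all protein-coding genes. Only 5 (12.8%) passed 1 CPM in every tumor, among them Hoxa7 at 16.2, 18.7, 16.7 and 18.5 CPM. At the other end, 25 of 31 integrin genes (80.6%) passed 1 CPM in every tumor, beside 51.6% of all protein-coding genes. For collagen genes it was 25 of 45 (55.6%), near the share of all protein-coding genes.

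Of the 9182 genes, 1087 (11.8%) differed at least 2-fold and 105 (1.14%) at least 4-fold between the highest and the lowest tumor. Among the 105, tumors 1 and 2 were the 2 highest for 50 and tumors 3 and 4 for 49. Leaving out tumor 4 lowered the count past 4-fold to 69, and leaving out any other tumor gave 91 to 93. The median SD of log2(CPM + 0.5) was 0.23, and the median ratio of the observed to the counting variance was 26, so that for most genes counting error was a small part of the spread. Only 2.80% of the genes had a ratio under 2.

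The 15 protein-coding genes of largest spread differed mostly between the same pairs of tumors. Col10a1, the collagen of hypertrophic cartilage, was at 47.4, 62.4, 1.02 and 1.67 CPM. C3, the central complement protein, was at 3.15, 4.57, 89.1 and 81.0, and Serpina3n, an acute phase protease inhibitor, at 1.10, 0.141, 23.5 and 22.7 CPM. Alox15 (a lipoxygenase), Scd1 (the desaturase of fatty acids), Lox (the collagen crosslinking oxidase), Ccl12 (a chemokine for monocytes), Gfra2 (a receptor for neurturin) and Dok2 (an adaptor of blood cells) were likewise higher in tumors 3 and 4. Lamc3, a laminin chain, was at 116, 105, 17.4 and 8.97 CPM, and Fmo2 at 43.8, 40.3, 4.58 and 3.33. Per2, a repressor of the circadian clock, was at 19.8, 16.8, 4.62 and 0.641 CPM and so was lowest in tumor 4. For these 12 genes the values of tumors 1 and 2 did not overlap those of tumors 3 and 4. Over all 9182 genes this held for 33% with tumors 1 and 2 higher and for 30.6% with tumors 3 and 4 higher. A choice by spread favors such genes, since the component that separated the pairs held 76.2% of the variance.

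The other 3 genes of largest spread share exon sequence with a second identifier. Zc3h11a, an RNA-binding zinc finger gene, was at 71.6, 79.2, 32.0 and 0 CPM for 1 identifier, but the sum with its second identifier was 163, 112, 112 and 103. Chtf8 was at 4.96, 0.0941, 48.4 and 39.4 CPM, and with its second identifier at 72.4, 73.7, 123 and 133. Gm20390 was at 24.4, 0, 7.01 and 9.06 CPM and overlaps Nme2, with which it summed to 296, 231, 250 and 314. The sums varied by 1.83-fold or less, and the separate values of these genes are uncertain because reads of shared exons could fall to either identifier in the authors' counting.

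**Figure D5:**
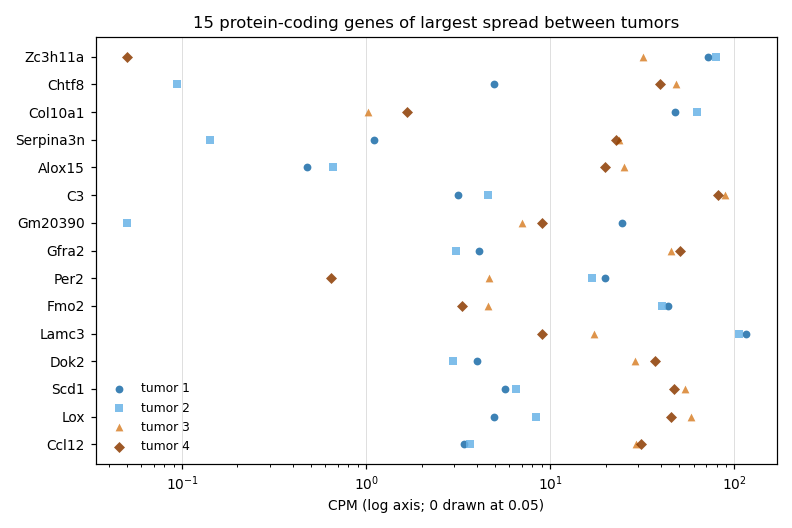
CPM on a log axis, with 0 drawn at 0.05, of the 15 protein-coding genes of largest spread, 1 point per tumor. C3 is at 3.15 and 4.57 CPM in tumors 1 and 2 and at 89.1 and 81.0 in tumors 3 and 4, and Zc3h11a reaches 0 in tumor 4.

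The choice of the 15 least variable genes rested on all 4 tumors, since only 2 to 6 of the 15 were shared when 1 tumor was left out. Hnrnpl, a splicing factor, was at 350, 349, 349 and 350 CPM (SD of log2 values 0.0026), and Tm9sf3, a membrane protein of the secretory pathway, at 324, 326, 324 and 326 CPM. Stt3a, of the oligosaccharyl transferase, was at 157 ± 1.16 CPM, Pafah1b1 (Lis1, a regulator of dynein) at 184 ± 1.10 and Arpc1b, of the actin-branching Arp2/3 complex, at 502 ± 8.32 (SD, n = 4). For Hnrnpl the ratio of observed to counting variance was 0.0287, so its 4 values lay closer than counting error alone would bring on average, which a choice of the smallest of many spreads selects for. Among reference genes, Gapdh was at 2457, 2707, 2627 and 2753 CPM and Sdha at 157 to 181, beside the 2.23-fold range of Actb.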

How the data were processed

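RNA of whole tumors was made into libraries with the NEBNext Ultra kit and sequenced on an Illumina NovaSeq per the labels. The paper's methods name an Illumina HiSeq instead. The authors deposited a table of each gene's estimated counts per tumor, made from aligned reads with no scaling between tumors; the submitters' processing notes name STAR 2.5.3, RSEM 1.3.1 and DESeq2 1.24.0 and the build GRCm38. The annotation used for counting and the strandedness are not given in the sources used here. The columns of the 4 calcipotriol tumors were not used, and 0 columns belonged to other samples.

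The deposited counts were rounded (4.20% to 5.35% of identifiers were not whole) and scaled with TMM in edgeR 4.0.16 (R 4.3.3) to CPM. The rest was computed in Python 3.11.15. Identifiers were matched to GENCODE M21, which gave symbols, positions and union exon lengths. Where a symbol had several identifiers, a gene list used the one of highest mean. The 4 tumors form 1 group, so no test was made and no p-value is given. The study's methods call them biological replicates, and SDs measure the spread between these 4 libraries. Intervals of counting error do not cover PCR duplicates. Spread was the SD of log2(CPM + 0.5) among genes with a mean of 10 CPM or more. The counting variance was that of Poisson counts at equal levels in the 4 tumors. In simulated counts for 9182 genes, all 100 genes changed 8-fold between pairs of tumors passed 4-fold and 0 unchanged genes did. Of 100 genes raised 4-fold in 1 tumor, 68 passed. The spread set in the simulation was below the common biological coefficient of variation of these tumors, 0.277. It therefore checks the counting rule and cannot tell how many unchanged genes would pass in these data.

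Genes were named as the 20 highest by CPM, the 10 highest by CPM per kb, the 15 of largest and the 15 of smallest spread (the last 3 among protein-coding genes), and the highest, lowest and defining members of 35 lists. The members and lists were chosen with earlier results of these data known, and the clock, glucocorticoid, sterol, bone and monocyte chemokine lists after their values were seen. A few list members are counted but not reported here by name. Promoters are from RefSeq (GRCm38.p6). Alternatives changed the library sizes, pseudocounts, CPM limits, length corrections and the tumors included.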

Additional observations from a re-analysis of the deposited data

Results flagged for a closer look

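Of 358 quantities checked for a tumor far from the other 3, 7 (1.96%) were flagged, where chance alone gives about 1 in 20. The value given for each is the gap between the extreme tumor and its nearest neighbour as a share of the range over the 4 tumors. The share of counts in ribosomal protein genes was 9.11% in tumor 4 and 7.91% to 7.99% in the others (0.936). Eef1a1 was highest in tumor 2 at 12620 CPM (0.887), and mt-Nd1 was lowest in tumor 1 at 2204 CPM, beside 3786 to 4099 in the others (0.835). B2m was at 961 CPM in tumor 2 and at 668 to 707 in the others (0.865). Itga5 was highest in tumor 1 at 199 CPM (0.905). Rb1 was highest in tumor 2 at 47.7 CPM (0.869), and Grb2 was highest in tumor 4 at 120 CPM (0.918). The rule cannot flag genes whose values fall into pairs of tumors, which was the commoner pattern in these data.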

How the results depend on the processing

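Of 189 alternative values, 178 stayed within the SD between tumors or within 1.5 times the count, among them all 138 for the 23 marker lists. Leaving out 1 of 4 tumors can hardly move a mean by more than that SD, so for list sums those settings were no real check. The mean skeletal muscle sum went from 35.7 to 24.8 CPM without tumor 4 and still counted as unmoved. The epithelial minus mesenchymal level stayed negative under every alternative. Without the mitochondrially encoded genes the 50 highest genes took 16.9% of counts. The epithelial minus mesenchymal level was -4.14 with a pseudocount of 1, -7.77 with no length correction and -7.40 as a difference of medians. The count of genes over 4-fold was 639 at a mean of 1 CPM or more and 20 at 50 CPM or more. Leaving out 1 tumor gave 69 to 93, and only leaving out tumor 4 (69) moved it by over 1.5 times. Of the 15 least variable genes, 2 to 6 were shared when 1 tumor was left out, so they depend on all 4 tumors, and 10 to 12 of the 15 most variable were. Without overlapping genes, 98 differed 4-fold. No paired analysis was possible because all 4 tumors belong to 1 group. At totals of 20908409 counts or more, a count of 0 allows a level of up to 0.117 to 0.143 CPM.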

Other observations

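Lists of genes assembled after their values were seen describe further differences between the tumors, and no test can be drawn from them. All 12 sterol synthesis genes were highest in tumors 3 and 4. Cyp51, lanosterol demethylase, was at 21.2, 28.0, 107 and 102 CPM, Idi1, isopentenyl diphosphate isomerase, at 9.11, 15.9, 63.2 and 65.9, and Sqle, squalene epoxidase, at 18.6, 21.3, 54.9 and 58.9. All 4 monocyte chemokine genes were also highest in tumors 3 and 4, with Ccl2 at 10.3, 5.79, 42.4 and 53.4 CPM and Ccl8 at 2.62, 2.16, 23.3 and 18.3. These moved in the same tumors as the monocyte genes.

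All 6 glucocorticoid response genes past 10 CPM were highest in tumors 1 and 2. Fkbp5, a chaperone of the glucocorticoid receptor, was at 444, 397, 169 and 165 CPM and Tsc22d3 (GILZ) at 245, 246, 93.3 and 101. Among clock genes, Per1, which belongs to both lists, was at 214, 180, 64.2 and 63.0 CPM, Tef at 86.0, 69.2, 24.9 and 28.5 and Dbp at 16.0, 16.7, 4.27 and 7.18, whereas Arntl (41.5 to 51.5 CPM) and Clock (34.3 to 42.8 CPM) were even. The labels give no time of day for the harvest.

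Spp1 and Mgp, among the 20 identifiers with the most counts, are known from bone and cartilage. Of the same list, Ank, a transporter that limits mineral deposition, was at 2401, 2246, 1571 and 1472 CPM and Dmp1, an acidic protein of bone matrix, at 462, 354, 198 and 194. Bglap, Sp7 and Alpl, genes of osteoblasts, did not pass 0.626 CPM, and Acan and Sost had 0 counts. Of the 9 members past 10 CPM, 8 were highest in tumors 1 and 2.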
